A study of Mus musculus with 6 samples.

Results

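Apcdd1, Wif1 and Dkk4 are 3 inhibitors of Wnt signalling that act at the cell surface or outside the cell. They were followed in mouse whisker pads, the part of the face where whisker follicles begin to form. All probe sets that the platform annotation assigns to these genes were taken, which gave 4 for Apcdd1, 1 for Wif1 and 1 for Dkk4, 6 of the 22626 mouse probe sets measured and 3 of 12393 named genes. The genes were chosen by their lower signals in the mutant on these same arrays. Their difference between the groups is therefore described with its error and carries no test.

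The groups were wild-type embryos and homozygous Trps1 mutant embryos, both at E12.5, mid-gestation, with 3 arrays each and a separate embryo per array per the design text. Trps1 encodes a GATA-type zinc finger repressor of transcription, and the series title asks for its targets in vibrissae. The labels name no allele, strain or sex. A whole whisker pad holds surface epithelium, dermis, nerve, vessels and blood, so in these bulk samples fewer cells of one type and less RNA per cell cannot be told apart.

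Canonical Wnt signalling starts when a Wnt ligand joins a frizzled receptor to the co-receptor Lrp5 or Lrp6, which spares beta-catenin from destruction and lets it act with LEF/TCF factors on target genes. Wif1 is a secreted protein that binds Wnt ligands directly, Dkk4 is a secreted protein that occupies Lrp5 and Lrp6, and Apcdd1 is a membrane glycoprotein that interacts with Wnt and Lrp proteins. In mouse skin, Wnt activity in the epithelium is needed for hair placodes to form, and Dkk4 is a known marker of those placodes. Mutations of APCDD1 in humans cause a hereditary loss of hair.

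The promoter of Wif1 is shown because the Trps1 protein has a GATA-type DNA-binding domain and LEF/TCF factors carry the Wnt signal to genes. The RefSeq promoter table (build GRCm38.p6) held an entry for 1 of the 3 genes, Wif1. The 250 bases before its start, on the plus strand at chr10:121033754-121034003, read 5′ to 3′ as follows, with the 1 match to the LEF/TCF core CTTTG in capitals.
Wif1 promoter: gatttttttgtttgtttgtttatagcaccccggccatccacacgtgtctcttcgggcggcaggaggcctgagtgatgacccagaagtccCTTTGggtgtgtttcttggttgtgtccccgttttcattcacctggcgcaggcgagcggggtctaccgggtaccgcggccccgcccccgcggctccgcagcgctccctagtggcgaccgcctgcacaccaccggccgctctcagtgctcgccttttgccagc

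The match lay on the plus strand, from base -161 to base -157 counted back from the start. Both strands were searched, and 48.6% of the 32851 promoter windows of the same length in the table hold the letters CTTTG. The longer forms of that core, with A or T as the next base, were not in this window, while 27.6% of all windows hold one. The letters GATA were not in this window on either strand, against 53.6% of all windows, and the longer GATA forms with A or T before and A or G after, a subset of the first, were not in it either, against 26.5%. G and C made up 62.8% of the Wif1 window, and the median over all windows was 52.4%. A match or its lack describes these letters only.

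The targeted gene was examined first. The 1 probe set of Trps1 read 807.6, 1061.4 and 748.1 in wild-type replicates 1 to 3 and 1297.3, 1491.9 and 1506.7 in the mutant ones, so every mutant value lay above every wild-type value. The labels do not say which part of the gene is altered, so this level does not check them. The 6 arrays had the same 2% trimmed mean signal, 250.1, and the precision of every value below is limited by 3 arrays a group. Both replicate 3 arrays stood apart from the other 4 on the first principal component, with 28.7% of the variance. Wild-type replicate 3 was also the only array with a high Xist signal, 461.5 against 44 to 93.7 on the other arrays, and a low signal of the Y-linked gene Eif2s3y, 11.9 against 207.3 to 272.3. Values without both replicate 3 arrays, a setting chosen after seeing the data, are given beside each member. Bacterial control probe sets, 27 of them, read at most 33.8, and all 36 member values, from 46.6 upward, lay above that level.

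All 3 inhibitors read lower in the mutant pads. Differences are mutant minus wild-type in log2(signal + 16), with limma standard errors. The mutant mean was 41.7% of the wild-type mean for Wif1, 48.6% for Dkk4, and between 59.0% and 81.7% for the 4 probe sets of Apcdd1. In 5 of the 6 probe sets every mutant array lay below every wild-type array. The same arrangement was seen in 4.76% of all mouse probe sets, a background against which nothing is read here since the genes were picked for this contrast. The study's own threshold, an unadjusted p of at most 0.05 with at least a 1.5-fold change, was met downward by 4 of the 6, where 1.48% of all probe sets met it with limma. After Benjamini-Hochberg adjustment over all probe sets, 0 of the 6 and 0% of all were called by limma (adjusted p under 0.05). Of all 22626 probe sets, 1193 had an unadjusted limma p under 0.05, and the smallest adjusted limma p was 0.13. The unpaired test of equal variance that the methods name also called 0 after adjustment.

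**Figure D1:**
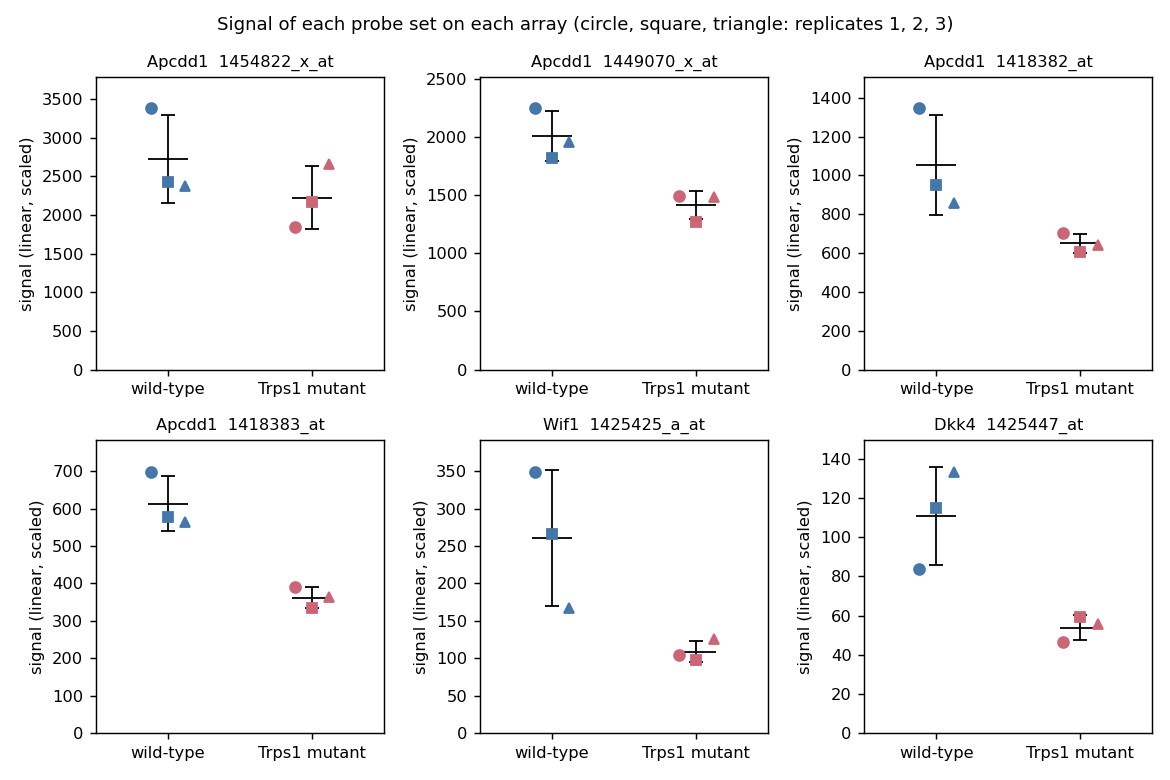
Linear signal (vertical axis, scaled by the authors) of the 6 probe sets in wild-type and Trps1 mutant whisker pads. Points are single arrays with a shape for each replicate number, and bars are means ± SD (n = 3). The groups are separated in every panel but that of Apcdd1 1454822_x_at, where mutant replicate 3 (2656.6) lies above wild-type replicates 2 and 3.

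Wif1, the Wnt-binding inhibitor, was measured by the probe set 1425425_a_at. It read 349.1, 266.6 and 167.6 in wild-type replicates 1 to 3 and 103.7, 97.4 and 125.4 in mutant replicates 1 to 3. The wild-type arrays were far apart and the mutant arrays close together, and the lowest wild-type value still lay 42.2 signal units above the highest mutant value. The group means were 261.1 ± 90.9 (SD, n = 3) and 108.8 ± 14.7, which is a spread of 34.8% of the mean in wild-type and 13.5% in mutant pads. The difference was -1.10 (SE 0.26), and -1.46 without both replicate 3 arrays. Leaving out single arrays moved it between -1.37 (without wild-type replicate 3) and -0.87 (without wild-type replicate 1).

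Dkk4, the Lrp-binding inhibitor of placodes, was measured by 1425447_at. Its signals were 83.8, 115.2 and 133.5 in wild-type replicates 1 to 3 and 46.6, 59.5 and 55.5 in mutant replicates 1 to 3. The groups were separated by 24.3 signal units. Its lowest mutant value was 1.38 times the highest bacterial control. The means were 110.8 ± 25.1 and 53.9 ± 6.60 (SD, n = 3). The difference was -0.84 (SE 0.20), and -0.74 without both replicate 3 arrays. It is the member most affected by the offset added before the log, with -1.01 at an offset of 1 and -1.02 with signals under 32 set to 32.

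Apcdd1, the membrane inhibitor, was measured by 4 probe sets whose differences varied in size. At 1418383_at the signals were 699, 578.2 and 564.2 in wild-type and 389.3, 333.9 and 363.3 in mutant replicates 1 to 3. The groups were 174.9 signal units apart, with means of 613.8 ± 74.1 and 362.2 ± 27.7 (SD, n = 3). The difference was -0.73 (SE 0.16), and -0.79 without both replicate 3 arrays.

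At 1418382_at the wild-type signals were 1344.7, 951.8 and 859.8 and the mutant signals 703.1, 604.6 and 640.8. Wild-type replicate 1 stood well above the other wild-type arrays, and all mutant values were below the lowest of them. The means were 1052.1 ± 257.5 and 649.5 ± 49.8, the difference was -0.66 (SE 0.20), and without both replicate 3 arrays it was -0.78.

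The other 2 probe sets of Apcdd1 carry the suffix _x_at, with which the array's maker marks sets whose probes may also match other sequences. At 1449070_x_at the signals were 2246.5, 1821.7 and 1956.7 in wild-type and 1491.6, 1272.7 and 1484.2 in mutant pads, again without overlap. The difference there was -0.50 (SE 0.16), and -0.55 without both replicate 3 arrays. At 1454822_x_at they were 3375.4, 2426.9 and 2366.6 in wild-type and 1849, 2164.6 and 2656.6 in mutant pads. There the groups overlapped, since mutant replicate 3 read above wild-type replicates 2 and 3. The difference at 1454822_x_at was -0.29 (SE 0.21), -0.12 without wild-type replicate 1, -0.16 without mutant replicate 1 and -0.51 without both replicate 3 arrays. It was the only one of the 6 differences that shrank by more than 1.5 times when 1 array was left out.

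**Figure D2:**
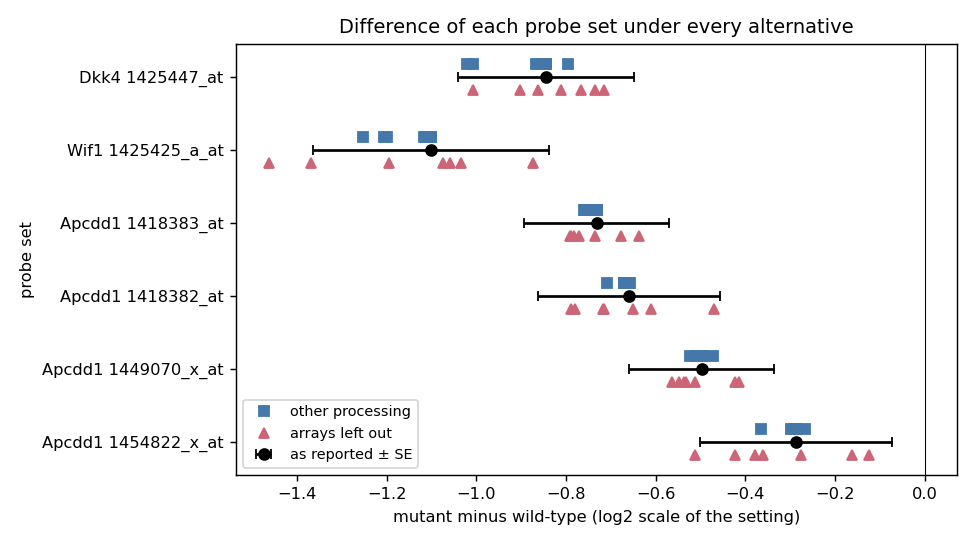
Mutant minus wild-type difference (horizontal axis, log2 scale of each setting) of the 6 probe sets as reported (black, ± SE), under other normalizations, offsets and fits (blue squares) and with arrays left out (red triangles). All points lie below 0, and those of Apcdd1 1454822_x_at come nearest to it, at -0.12 without wild-type replicate 1.

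The members also differed in which wild-type embryo was high. Relative to the wild-type mean of each probe set, wild-type replicate 1 read 134% for Wif1, 112% to 128% for the probe sets of Apcdd1, and 75.6% for Dkk4. Wild-type replicate 3 read 64.2% for Wif1 and 120% for Dkk4. The embryo with the highest Wif1 and Apcdd1 was thus the one with the lowest wild-type Dkk4. With group means taken out, the correlation over the 6 arrays was 0.82 between Wif1 and Apcdd1 at 1418382_at, -0.81 between Wif1 and Dkk4, and -0.99 between Dkk4 and that Apcdd1 probe set. Over the 6 arrays with the group difference kept in, the same pairs correlated at 0.95, 0.64 and 0.57. The probe set 1418382_at gave the strongest of the Apcdd1 correlations with group means taken out. At the other Apcdd1 probe sets they ran from -0.46 to -0.96 with Dkk4 and from 0.52 to 0.74 with Wif1. These correlations describe 6 arrays that every pair shares, and rest mainly on the 3 wild-type ones.

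**Figure D3:**
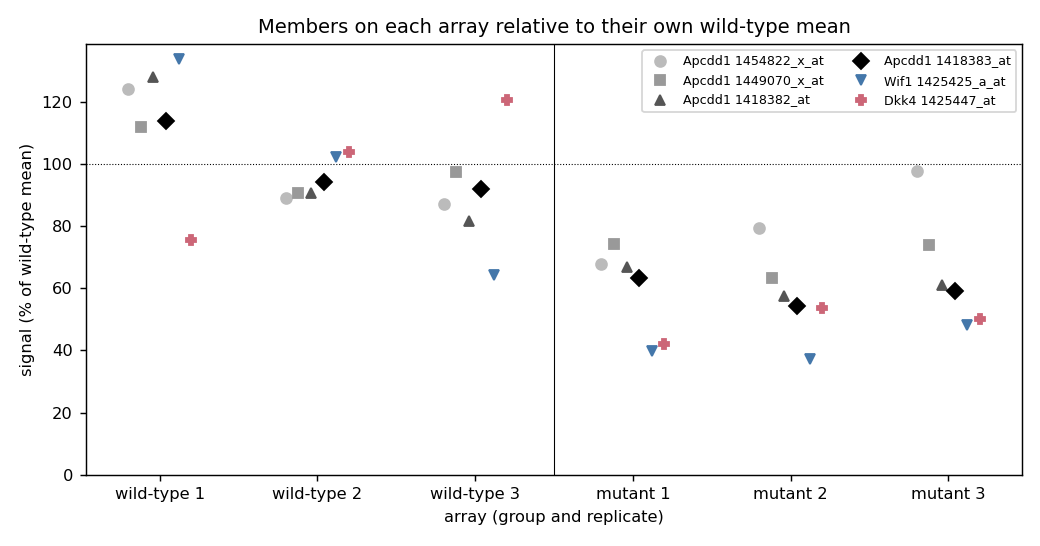
Signal of each probe set as a percentage of its own wild-type mean (vertical axis) on each of the 6 arrays (horizontal axis). In wild-type replicate 1 Dkk4 (75.6%) lies below and Wif1 (134%) above the dotted line at 100%, and in wild-type replicate 3 their places are exchanged, at 120% and 64.2%.

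The probe sets of Apcdd1 moved together to different degrees. With group means taken out, 1418382_at and 1418383_at correlated at 0.96 and each of them with 1449070_x_at at 0.78 and 0.90. The correlations of 1454822_x_at with the other 3 were lower, at 0.48 to 0.58.

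The authors' deposited table of 65 probe sets, of which 23 are lower and 42 higher in the mutant, holds 4 of the 6 members. The study's threshold applied here with limma gave 335 lower and 388 higher probe sets. The 65 are thus not the set which that rule gives on these signals. In the authors' deposited table Wif1 has a fold of 2.41, the 3rd highest of the 23, Apcdd1 has 1.69 at 1418382_at and 1.64 at 1418383_at, and Dkk4 has 1.68. Both _x_at probe sets of Apcdd1 are not among the 65. From the deposited signals, the ratio of the geometric group means was 2.31 for Wif1, 1.59 and 1.69 for those 2 probe sets of Apcdd1 in the same order, and 2.03 for Dkk4. For Dkk4 the authors' deposited table thus gives the smaller fold, and the sources used here do not say how its values were normalized.

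Other antagonists that act at the cell surface were measured by 18 genes of a list of 22. At an unadjusted limma p under 0.05, 2 of them were lower and 1 was higher, where 2.34% of all genes were lower and 2.70% higher by that rule, and 0 passed after adjustment over all probe sets. The median difference of the 18 was 0.07, against 0.00017 over all 12393 genes, each at its brightest probe set. The 3 genes concerned were Sostdc1, which blocks both Wnt and BMP signals, Igfbp4, a growth factor binding protein that also binds Lrp6, and Frzb, a secreted frizzled-related protein.

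Sostdc1 read 798.4, 448.2 and 312.8 in wild-type and 305.2, 213.2 and 312.1 in mutant replicates 1 to 3. Its groups only just failed to overlap, with a difference of -0.79 (SE 0.34), -0.43 without wild-type replicate 1 and -0.27 (SE 0.60) at its other probe set. Igfbp4 read 3091.9, 2881.5 and 3076.2 against 2159.5, 1848.7 and 2633.7, a difference of -0.46 (SE 0.18), and 3 of its 6 probe sets had groups without overlap. Frzb went the other way, with 165.2, 126.6 and 104.1 against 190.7, 302.5 and 214.2, a difference of 0.76 (SE 0.23), and 0.32 (SE 0.41) at its other probe set. Among other genes of the Dkk family, groups overlapped for Dkk1 at -0.21 (SE 0.21), Dkk2 at 0.13 (SE 0.24) and Dkk3 at -0.03 (SE 0.21).

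**Figure D4:**
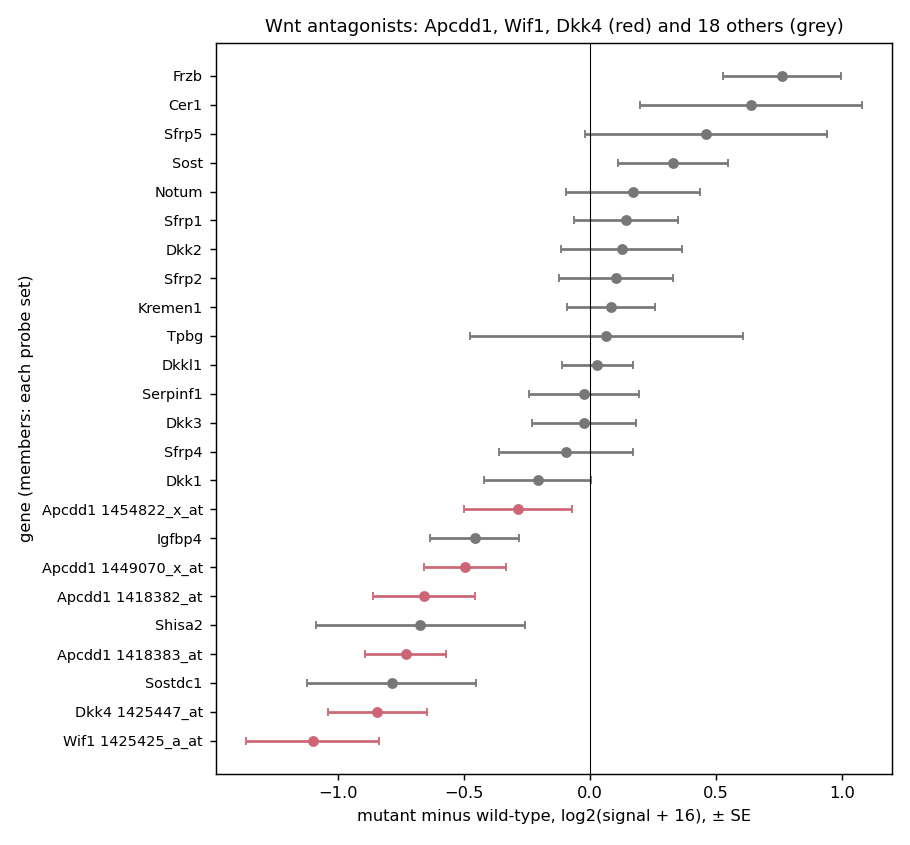
Mutant minus wild-type difference in log2(signal + 16) with its SE (horizontal axis) for the 6 probe sets of Apcdd1, Wif1 and Dkk4 (red) and the brightest probe set of the 18 other antagonists (grey). The values of the other antagonists run from -0.79 for Sostdc1 to 0.76 for Frzb, and Wif1 and Dkk4 lie at the low end, at -1.10 and -0.84. The members were chosen for lower mutant signals on these arrays, so their place in this ranking is not a result.

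RNA levels of the ligands and receptors of the pathway were compared next. Wnt ligands, which Wif1 binds as proteins, numbered 21 genes with a median of -0.03. At an unadjusted p under 0.05, 2 were lower and 1 higher, or 14.3% of the list, where 2.34% of all genes were lower and 2.70% higher. The lower ones, Wnt9a and Wnt8a, read below the brightest bacterial control set in wild-type and mutant pads alike. The sizes of their differences are set by the offset, with -0.79 and -0.58 as reported, -2.17 and -1.42 at an offset of 1, and 0 for both with signals under 32 set to 32. The higher one was Wnt5b at 0.39 (SE 0.15), measured by an _x_at probe set. Its wild-type mean, 33.3, also lay under the highest bacterial control, and its mutant mean was 48.4. A dimmer probe set of Wnt5b differed by -0.18 (SE 0.31). Of 19 receptors and co-receptors 0 differed by that rule, with a median of 0.03.

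Lrp6, a co-receptor that Dkk4 binds, differed by 0.05 (SE 0.19) at its brightest probe set, with a sign that turned when single arrays were left out. At its other probe set, 1451022_at, it read 9, 40.6 and 49.4 in wild-type and 135.7, 99.9 and 71.4 in mutant pads, without overlap, and the difference there was 1.35 (SE 0.39). The 2 probe sets of Lrp6 thus disagree. Lrp5 read 15.2, 39.3 and 18.7 against 21.4, 28.9 and 8, around the bacterial controls, and Kremen1, a receptor that works with Dkk proteins, differed by 0.09 (SE 0.17).

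Inside the cell, 20 inhibitors and feedback genes had a median of 0.13, with 1 lower and 0 higher. The lower gene, Nkd2, an inhibitor of Dishevelled, differed by -0.66 (SE 0.24) with overlapping groups and by -0.86 (SE 0.15) without overlap at its other probe set. Axin2, a feedback inhibitor and common readout of beta-catenin activity, read 419.7, 341.7 and 322.6 in wild-type and 443.9, 527.4 and 411.2 in mutant pads, which overlap, with a difference of 0.34 (SE 0.18). A dimmer probe set of Axin2 gave -0.37 (SE 0.51). The 13 transducers and nuclear factors had a median of 0.02 (-0.14 without mutant replicate 1) with 0 past that rule.

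Wnt/beta-catenin response genes, 20 of them and partly shared with the lists above, had a median of 0.15, with 16 higher and 4 lower. Of all genes, 6203 were higher and 6190 lower. In 5 of the 20 both group means lay under the highest bacterial control, where a sign says little. By the rule of an unadjusted p under 0.05, 1 of the 20 was higher and 1 lower, Sp5 and Nkd2. Sp5, a direct Wnt target, read 72.2, 54.8 and 20.7 in wild-type and 115.1, 158.5 and 78.2 in mutant pads, all above, at 1.08 (SE 0.36) and 0.71 without wild-type replicate 3. Lef1 read 475.9, 300.6 and 112 against 441.6, 482.4 and 96.9, low on both replicate 3 arrays, with a difference of 0.12 (SE 0.68) that was -0.42 without wild-type replicate 3. Over all 6 Wnt lists, 8 of 104 genes, or 7.69%, had an unadjusted p under 0.05, 5 lower and 3 higher. By that rule 2.34% of all genes were lower and 2.70% higher. The 5 lower genes include Wnt9a and Wnt8a, whose signals lay below the brightest bacterial control set. The count of 8 became 3 without mutant replicate 2, 12 without wild-type replicate 3 and likewise without mutant replicate 3.

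Markers of the tissue layers in which these inhibitors act were set beside them. By the rule of an unadjusted p under 0.05, 2.34% of all genes were lower and 2.70% higher. Placode and follicle epithelium markers, without the members, were lower in 18 of 27 genes with a median of -0.07, and 3 were lower and 0 higher at an unadjusted p under 0.05, among them Lhx2 at -1.18 (SE 0.25) and Sox21 at -1.36 (SE 0.31). The median was -0.20 without the 7542 dimmest probe sets and likewise with wild-type replicate 3 left out, and -0.18 with mutant replicate 1 or 2 left out. The summed signal of the list ran from 5238.4 to 8555.4 in wild-type and from 4795.6 to 5785.5 in mutant pads. The defining markers were dim, with Shh at 3.9 to 14.7 on all 6 arrays and Edar, the ectodysplasin receptor, above the bacterial controls only in wild-type replicate 2, at 55.3. Lhx2 and Sox21 also fell under the highest bacterial control in mutant pads, to 19.4 and 12.6 at the lowest. Their differences were -1.53 and -1.93 at an offset of 1, and -1.33 and -1.19 with signals under 32 set to 32. Dermal condensate and fibroblast markers had a median of -0.12, with 6 lower and 3 higher of 31, and the median moved to -0.24 once wild-type replicate 3 was dropped and to -0.25 once mutant replicate 2 was. Their sum was 20868.7 to 23836.5 in wild-type and 22524.7 to 23258.5 in mutant pads. Among the 6 lower ones Prdm1, a repressor found in condensates, differed by -1.11 (SE 0.15). The 3 higher ones were Lum at 0.95 (SE 0.27), Dcn at 0.69 (SE 0.21) and the targeted gene Trps1 itself at 0.72 (SE 0.18). The part of these markers in the members' differences was not tested.

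The remaining lists mostly cover other cell types of the pad. Their counts use the same rule, met by 2.34% of all genes downward and 2.70% upward. Epidermis and periderm markers had a median of 0.05 and 0 of 24 genes with an unadjusted p under 0.05, and their sum was 5266.5 to 7662.9 in wild-type and 5136.4 to 6732 in mutant pads, so markers of surface epithelium were detected in both groups. Cartilage markers had a median of 0.04 (0.17 if wild-type replicate 2 is dropped, 0.24 if mutant replicate 2 is) with 1 of 19 genes higher. Ectodysplasin and NF-kB genes had one of 0.19 (0.09 without mutant replicate 2) with 1 of 12 higher. Neuron markers had 4 of 15 higher and 1 lower, with a median of -0.03 whose sign turned in other settings, to 0.26 without the 7542 dimmest probe sets, 0.20 without wild-type replicate 1, and 0.11 without wild-type replicate 2 or mutant replicate 1. They had a sum of 2334.3 to 2527.3 in wild-type and 2907.8 to 3278.4 in mutant pads. Erythroid markers had a median of -0.21 (-0.32 without mutant replicate 2, -0.04 without both replicate 3 arrays) with 2 of 10 lower, and a sum of 24558.9 to 28968.4 against 23208.7 to 26247.7. Endothelial markers had a median of -0.02 with 2 of 14 lower, muscle markers one of 0.0016 (-0.13 without the dimmest probe sets) with 2 of 15 lower and 1 higher, and macrophage markers one of 0.08 (0.21 with array weights, 0.24 without both replicate 3 arrays) with 1 of 13 lower.

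The genes whose signal over the 6 arrays was most like that of each member were sought among 9441 genes brighter on average than the bacterial controls. Pearson correlations with so few arrays are high for many genes by the search alone, with 50 genes above 0.9 for Wif1, 55 for Dkk4 and 48 for Apcdd1 at its brightest probe set, and are given as a description. As the members were picked for lower mutant signals, genes found by likeness to them tend to share that difference. Group separation of a gene found this way is therefore not a result. For Wif1 the closest 5 were Tmem33, Marveld2, Gadd45g, Nrtn and Zfp386, at 0.98 to 0.998. Gadd45g, a growth arrest and stress response gene, read 223.3, 198.2 and 168.8 in wild-type and 110.3, 110 and 128.6 in mutant pads, which is without overlap. Nrtn, the neurotrophic ligand neurturin, read 214.8, 187 and 151.7 against 137.6, 124.8 and 131.

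For Dkk4 the closest 5 were Zswim7, Sipa1l2, Vcp, Plbd2 and Stra6, at 0.97 to 0.99. Stra6, a membrane receptor for retinol uptake, read 25.5, 52.9 and 96.3 in wild-type and 7.1, 20.6 and 13.5 in mutant pads. All mutant values and that of wild-type replicate 1 lay under the highest bacterial control. For Apcdd1, represented by the overlapping probe set 1454822_x_at, they were Phlda1, Slc5a7, Atp5md, Vwa5a and Phc2, at 0.96 to 0.98. The 3 sets of 5 genes had no gene in common.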

How the data were processed

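Total RNA of whole whisker pads was labelled as biotinylated cRNA and measured on 6 MOE430A arrays (Affymetrix, 1 colour), per the labels' protocols. The deposited intensity table holds 1 linear signal per probe set and array, and its summary method is not given in the sources used. The authors' deposited fold, a linear ratio, and log2 group values were made with GeneSpring GX 10.0, per the design text. Group and replicate number were read from the titles of the samples.

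The 64 control probe sets were left out, and 16 was added before log2. Names in the platform annotation were brought up to date through gene numbers (GRCm38.p6; 20351 of 20380 probe sets with 1 gene). Probe sets with several genes (691) or none listed (1555) were tested but not named. The members were used probe set by probe set, and other genes by their brightest one. limma 3.58.1 (lmFit, eBayes, two-sided, no covariates) in R 4.3.3 was fitted to all 22626 probe sets with Benjamini-Hochberg adjustment, and tested on simulated data. No 2 arrays shared more than 0.358% equal signals.

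The members, lists and tests were chosen with earlier results of these data known. Named besides the members and Trps1 were up to 6 genes per Wnt list and up to 4 per other list with an unadjusted p under 0.05, pathway partners, and the 5 genes most correlated with each member. As relatives of Dkk4, Dkk1, Dkk2 and Dkk3 were added with their values already seen. Alternatives were quantile normalization, equal medians, an offset of 1, a floor of 32, removal of the 7542 dimmest probe sets, the replicate number as a block, a trended prior, array weights, each array left out, the methods' t-test and the mean of all probe sets of a gene.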

Additional observations from a re-analysis of the deposited data

How the results depend on the processing

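The 6 member differences kept their sign in all 15 alternatives and moved by less than the spread between replicates in each of them. Part of this was fixed in advance. Removing dim probe sets, the replicate block and the trended prior cannot change a difference in group means. Where the groups did not overlap, leaving out arrays cannot turn the sign. Leaving out a single array cannot move a difference by as much as the spread between replicates, whatever the values. By the rule of an adjusted p under 0.05, limma called 0 probe sets as reported, 2 without the 7542 dimmest probe sets (Epyc and a probe set shared by Hba-a1 and Hba-a2), 1 with a trended prior (the same globin probe set), and 0 to 1 with single arrays left out (Rps9, without mutant replicate 3). None of these is a member. By the study's threshold, limma counted 335 probe sets lower and 388 higher in the mutant. These counts were 139 and 172 with a floor of 32, 146 and 172 without the 7542 dimmest probe sets, 166 and 193 with the methods' t-test, and 537 and 713 without both replicate 3 arrays. The higher count was 393 to 643 with single arrays left out, the latter without mutant replicate 3. The 8 Wnt pathway genes with an unadjusted p under 0.05 were 5 with a floor of 32, 15 without both replicate 3 arrays, and 3 to 12 with single arrays left out. Fewer probe sets or arrays were tested where some were left out, and otherwise the cause was not tested.

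With the replicate block, the study's threshold gave 367 lower and 422 higher probe sets and 9 Wnt pathway genes. In this balanced layout the block cannot change a member difference. Deviations of same-numbered arrays correlated at 0.04, 0.07 and 0.14 over all probe sets and at 0.14, 0.28 and 0.33 over those with a mean log2 signal above 8. Only the latter are all above 0.1, so the values do not settle whether the numbers pair arrays. Over all probe sets, 5 of 6 arrays correlated best with their own number, and the labels do not say what a number stands for.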

Other observations

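With group means taken out of both, the genes closest to a member in their variation among embryos of the same group were different from those closest over all arrays, apart from Tmem33 for Wif1 and Slc5a7 for Apcdd1. The matches with group means taken out are again the best of 9441 genes, and the search alone can give correlations this high. For Dkk4 the first was Lonp2, a peroxisomal protease, at a correlation of 0.99 over 6 arrays. Lonp2 read 195.8, 256.1 and 306.3 in wild-type and 225, 268.5 and 261.1 in mutant pads and differed by 0.01 (SE 0.20). Loxl1, a cross-linking enzyme of elastic fibres, came second at 0.99 and differed by -0.18 (SE 0.20). For Wif1 the first gene after Tmem33 was Ist1 at 0.99, with a difference of 0.15 (SE 0.20). The groups of Lonp2, Loxl1 and Ist1 overlapped.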
